A study of Mus musculus with 15 samples.

Results

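The 10 genes described here encode the enzymes and regulators that set cellular polyamine levels, namely *Odc1*, *Amd1*, *Amd2*, *Srm*, *Sms*, *Smox*, *Sat1*, *Azin1*, *Oaz1* and *Oaz2*. They were taken by symbol from the 30672 mouse genes of a table of read counts, through the Ensembl identifier of each gene in the GRCm38 annotation, rather than by a threshold on a measured value. The list was, however, chosen with earlier results of these data known, so counts of members called are descriptions only. RNA was sequenced in 15 libraries from the tibialis anterior, a fast muscle of the lower hind limb, of male mice of strain 129Pas aged 7 weeks. Wild-type mice (WT, n = 4) and *Mtm1*-/y mice (n = 4) had no drug named in their labels. Wild-type mice (WT + TAM, n = 4) and *Mtm1*-/y mice (Mtm1-/y + TAM, n = 3) received tamoxifen, a selective oestrogen receptor modulator, and dose and duration are not stated in the sources at hand. *Mtm1*-/y males lack myotubularin, a phosphoinositide phosphatase encoded on the X chromosome, and serve as a model of X-linked myotubular myopathy. All groups shared the strain, sex and age. The comparisons ask how the loss of *Mtm1*, tamoxifen and both together affect each polyamine gene. The labels number the samples within a group and speak of groups of mice, without naming the animal behind each library. Each n therefore counts libraries.

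Putrescine, spermidine and spermine are small polycations that bind nucleic acids and are needed for growth and translation. *Odc1* (ornithine decarboxylase) makes putrescine, *Amd1* (S-adenosylmethionine decarboxylase) supplies the aminopropyl donor, and *Srm* and *Sms* (spermidine and spermine synthase) add aminopropyl groups to give spermidine and then spermine. *Smox* (spermine oxidase) and *Sat1* (spermidine/spermine N1-acetyltransferase) run the pathway backwards, antizymes (*Oaz1*, *Oaz2*) mark ornithine decarboxylase for the proteasome, and antizyme inhibitor (*Azin1*) draws antizyme away from it. In skeletal muscle *Odc1*, *Amd1* and *Smox* are known as androgen-responsive genes, and lower *Smox* has been described in several forms of atrophy.

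The libraries held 18042558 to 45823277 counts, and levels are counts scaled by library size and TMM factor (CPM), with the mean ± SD over libraries. *Mtm1* itself was at 14.9 to 15.6 CPM in WT, 13.5 to 17.7 CPM in WT + TAM, 2.91 to 3.63 CPM in Mtm1-/y and 3.04 to 3.71 CPM in Mtm1-/y + TAM, so each library fell on the side its genotype label gives. All 6 skeletal muscle markers were detected in every group, with a summed level of 124810 to 215568 CPM. In a principal component analysis, Mtm1-/y replicate 1 stood apart on the second component and WT + TAM replicate 1 on the third, and values without either are given where they move a result. WT + TAM replicate 1 had a summed level of 1170 CPM over 6 slow-fibre markers and 4695 CPM over 6 fibroblast markers, each the highest of its group. Mtm1-/y replicate 1 had the lowest fibroblast level of all libraries, at 358 CPM.

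All 10 genes had enough reads to be among the 15533 tested by edgeR's quasi-likelihood method. A call means an adjusted p under 0.05 after Benjamini-Hochberg correction across those genes. In WT muscle, levels per kb of exon placed *Smox* first (45.5 ± 20.8 CPM per kb), followed by *Oaz2* (25.9 ± 0.80) and *Amd1* (22.8 ± 3.92). The libraries of *Oaz2* and *Amd1* overlapped, whereas those of *Smox* lay above *Oaz2* and those of *Amd1* above *Oaz1*. *Oaz1*, *Azin1*, *Sms* and *Odc1* came next, between 9.24 and 13.1 CPM per kb on average, and each overlapped its neighbour in this order. *Sat1* and *Srm* were lower, at 4.35 ± 0.66 and 3.79 ± 0.46 CPM per kb, and also overlapped each other. *Amd2* was last, at 0.199 ± 0.067 CPM per kb, below every other member. In Mtm1-/y muscle the order was different, with *Oaz2* first (28.9 ± 7.32 CPM per kb), *Oaz1* second (20.6 ± 1.74), *Smox* after them (14.9 ± 6.74) and *Amd1* in place 9 of 10 (2.70 ± 1.22). Each gene from *Oaz2* in place 1 to *Sms* in place 6 overlapped the next in that group, whereas *Sat1* in place 7 lay above *Srm*. *Oaz2* and *Oaz1* also led in WT + TAM (26.7 and 16.2 CPM per kb) and in Mtm1-/y + TAM (33.8 and 19.5 CPM per kb), where their libraries did not overlap. *Smox* had place 4 in WT + TAM (13.0 ± 6.04) and place 6 in Mtm1-/y + TAM (8.34 ± 1.53), and *Amd1* places 8 (4.88 ± 1.32) and 9 (2.5 ± 0.72). The order between genes is uncertain, because sequence shared with other genes differs among the members and how such reads were counted is not stated. Of the 50-base stretches of the longest coding transcript, other genes shared 0% for *Smox*, 12.0% for *Oaz2*, 52.2% for *Oaz1* and 87.6% for *Amd1*. The exon length of a gene sums all annotated isoforms. With the mean transcript length in its place, *Smox*, *Oaz2* and *Amd1* still led in WT in this order, and *Amd1* still had place 9 in Mtm1-/y, whereas *Oaz1* moved from place 4 to place 6 in WT.

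**Figure D1:**
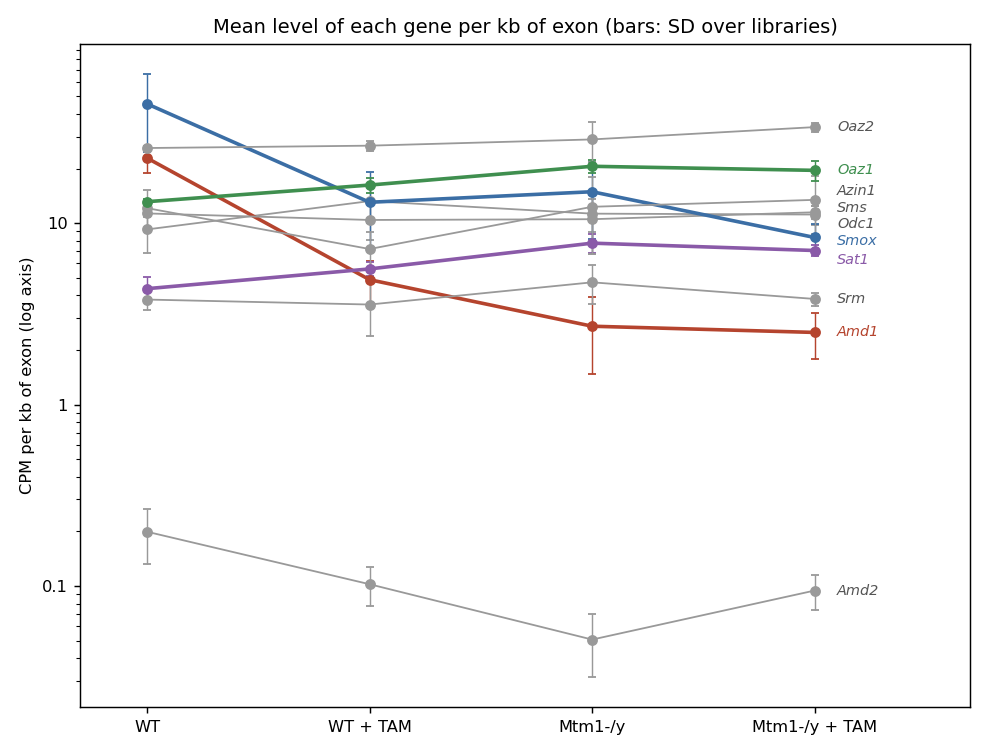
Mean level of each of the 10 genes in the 4 groups, in CPM per kb of exon on a log axis, with bars for the SD over libraries (n = 4, 4, 4 and 3). *Amd1* goes from 22.8 CPM per kb (WT) to 4.88 in WT + TAM and 2.70 in Mtm1-/y, while *Oaz1* goes from 13.1 to 16.2 and 20.6, and *Amd2* is the lowest line in every group. Levels are not corrected for sequence shared with other genes, so the order between genes is uncertain.

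*Amd1* and *Amd2* need to be read together, because *Amd2* is a nearly identical copy. *Amd1* (ENSMUSG00000075232, chr10:40287458-40302186, minus strand) has introns, and *Amd2* (ENSMUSG00000063953, chr10:35708675-35711892, minus strand) is annotated as a single exon of 3218 bases. Their longest coding transcripts matched at 99.7% of 3198 aligned bases. Of the 50-base stretches of the *Amd1* transcript, 87.6% also occurred in a transcript of another gene and 86.1% in that of *Amd2*, so reads from these stretches cannot be assigned by sequence, and neither the read length nor the treatment of such reads is stated in the sources at hand. The 100 bases around each annotated start site are shown to let a reader see where the copies part. They come from RefSeq (GRCm38.p6, minus strand, chr10:40302159-40302258 for *Amd1* and chr10:35711862-35711961 for *Amd2*), and capitals mark the 28 bases that both windows share.
Amd1: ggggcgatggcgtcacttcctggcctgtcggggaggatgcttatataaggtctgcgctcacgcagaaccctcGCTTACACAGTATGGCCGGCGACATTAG
Amd2: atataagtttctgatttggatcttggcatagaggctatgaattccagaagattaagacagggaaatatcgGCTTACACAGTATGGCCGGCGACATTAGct
No longer run is shared by the windows, and the annotated transcripts begin at or next to its first base. Both transcripts open with the same short upstream reading frame of 21 bases, an element known for polyamine-dependent control of *Amd1* translation, shown with its start and stop codons in capitals.
Upstream reading frame: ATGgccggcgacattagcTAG

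The loss of *Mtm1* was accompanied by lower levels of *Amd1*, *Amd2* and *Smox* and higher levels of *Sat1* and *Oaz1*. These 5 of 10 genes were called between Mtm1-/y and WT, 3 lower and 2 higher, where 30.4% of all tested genes were called (15.5% higher, 14.9% lower). *Amd2* passed the count filter through the WT group, in which it was high, and without it 4 of 9 genes were called. For the same 5 genes no Mtm1-/y library overlapped a WT library, which held for 30.5% of all tested genes. On the log2 scale the 10 genes had a median fold change of 0.09, and all tested genes one of 0.00047. Because whole muscle was sequenced, fewer cells of a type cannot be told apart from less RNA per cell. Alongside, the summed level of 5 endothelial markers was lower in every Mtm1-/y library (191 to 264 CPM) than in every WT library (376 to 493 CPM), and all 5 were called lower. That of 6 slow-fibre markers was higher (88.2 to 121 against 54.5 to 64.2 CPM), with 0 of the 6 called. That of 5 B cell markers was lower (0.34 to 4.64 against 53.3 to 72.4 CPM), but only 2 of them could be tested and 1 was called. The others fell under the count filter, so the B cell sum need not reflect all 5 markers. The summed level of 4 satellite cell markers was higher (201 to 223 against 139 to 154 CPM), a sum made up mostly of *Itga7* (210 ± 10.8 against 133 ± 7.56 CPM), which muscle fibres express too. Of the others *Pax7* (1.17 ± 0.24 against 6.38 ± 0.95 CPM) and *Vcam1* (2.02 ± 1.29 against 5.67 ± 0.81 CPM) were lower, so 3 of the 4 were called, 1 higher and 2 lower. Sums of the 6 skeletal muscle markers overlapped (124810 to 164377 against 158531 to 215568 CPM), and 2 of the 6 were called lower. Called higher were 2 of 5 Schwann cell, 1 of 8 macrophage and 1 of 6 fibroblast markers. Of 5 adipocyte and 5 blood markers 0 were called. The part of these cells in the results was not tested.

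**Figure D2:**
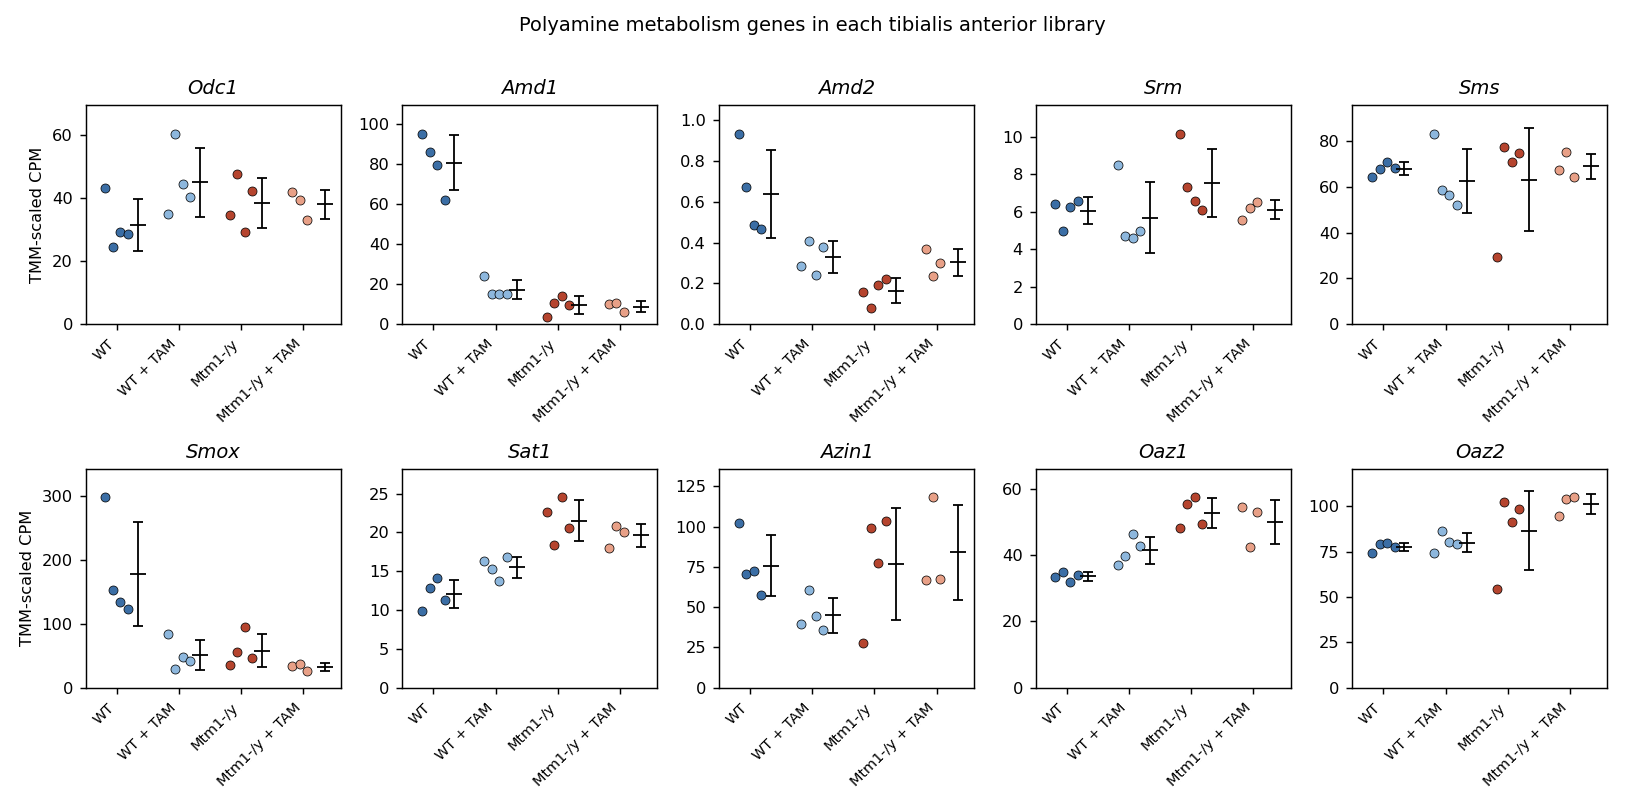
Level of each gene in TMM-scaled CPM (linear axis from 0) in each of the 15 libraries, one point per library, with the mean and SD of the group beside the points. The WT points of *Amd1* (62.4 to 95.3 CPM) and *Smox* (123 to 297 CPM) lie above all other libraries, and the lowest point of *Sms* (29.5 CPM) and of *Oaz2* (54.5 CPM) is Mtm1-/y replicate 1.

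*Odc1*, the first enzyme of polyamine synthesis, did not pass the test between the genotypes. Its level was 31.4 ± 8.16 CPM in WT against 38.4 ± 8.04 CPM in Mtm1-/y, with overlapping libraries and a log2 fold change of 0.29 (95% confidence interval -0.14 to 0.71). WT replicate 1, at 43.3 CPM, was the highest of its group, where the others lay between 24.6 and 29.2 CPM. In the *Odc1* transcript 42.2% of the 50-base stretches also occur in transcripts of 16 other genes, so the split of reads is uncertain here too. Genes whose profile over the 15 libraries was close to that of *Odc1*, by the root mean square difference of centred log2 CPM among 11057 genes, included *Bend3* (0.228) and *Zbtb21* (0.233).

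*Amd1*, whose product makes decarboxylated S-adenosylmethionine, had the largest change of the 10 genes. The WT libraries were at 95.3, 86.1, 79.8 and 62.4 CPM, and the Mtm1-/y libraries at 3.79, 10.6, 14.3 and 9.68 CPM. Every Mtm1-/y library was thus far below every WT library, and the lowest value was that of Mtm1-/y replicate 1. The mean fell from 80.9 ± 13.9 to 9.58 ± 4.34 CPM, 8.48-fold lower (log2 fold change -3.08, SE 0.34, adjusted p = 4.11e-05). Without each library in turn the log2 fold change lay between -3.32 and -2.82 and the gene was called each time. *Amd2* was counted at 11 to 38 reads in WT libraries and at 2 to 10 reads in Mtm1-/y libraries, so it passed the count filter through the WT group. Its level was 0.641 ± 0.216 CPM against 0.163 ± 0.061 CPM (log2 fold change -1.92, SE 0.36, adjusted p = 0.00111). Over all 15 libraries *Amd2* had 0.610% to 5.11% of the reads of *Amd1*. In an analysis added after the data were seen, the counts of *Amd1*, *Amd2* and the pseudogenes with names beginning Amd-ps were added up. *AC144860.3* and *Gm42818*, which also share stretches with *Amd1*, were left out of this sum. The log2 fold change of the sum was -3.07 (SE 0.33). So few added reads could hardly move it, and the sum does not settle how shared reads were split.

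The synthases that use this donor did not pass the test. *Srm* was at 6.06 ± 0.73 CPM in WT against 7.55 ± 1.83 CPM in the mutants, a log2 fold change of 0.31 (95% confidence interval -0.12 to 0.74) that was 0.13 without Mtm1-/y replicate 1 (SE 0.19). *Sms* was at 68.0 ± 2.71 CPM in WT against 63.2 ± 22.6 CPM in the mutants, a log2 fold change of -0.11 (95% confidence interval -0.60 to 0.39). The spread of *Sms* came from Mtm1-/y replicate 1, at 29.5 CPM against 71.0 to 77.4 CPM in the rest of its group, and without that library the log2 fold change was 0.13 (SE 0.13). Its transcript shares 28.7% of its 50-base stretches with transcripts of 6 other genes, which leaves the split of those reads uncertain.

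Of the catabolic genes, *Smox* was lower and *Sat1* higher in Mtm1-/y muscle. For *Smox*, which turns spermine back into spermidine, the WT libraries were at 297, 153, 134 and 123 CPM and the Mtm1-/y libraries at 34.8, 56.3, 95.1 and 45.9 CPM. The groups did not overlap. WT replicate 1 was the highest by a wide margin, and Mtm1-/y replicate 3 was the mutant library nearest to the WT range. The mean was 177 ± 81.2 CPM against 58.0 ± 26.2 CPM, 3.05-fold lower in the mutants (log2 fold change -1.61, SE 0.38, adjusted p = 0.0073). *Sat1*, the acetyltransferase that starts polyamine export and back-conversion, was at 9.91, 12.9, 14.2 and 11.4 CPM in WT and at 22.6, 18.4, 24.5 and 20.6 CPM in Mtm1-/y. Every Mtm1-/y library exceeded every WT library, and the mean was 1.79-fold higher (log2 fold change 0.84, SE 0.12, adjusted p = 0.000161).

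The windows upstream of *Amd1* and *Smox*, the members with the largest falls apart from the copy *Amd2*, are shown with 200 bases before and 30 after the start (RefSeq, GRCm38.p6; *Amd1* chr10:40302159-40302388, minus strand; *Smox* chr2:131491662-131491891, plus strand). Capitals mark GGGCGG on either strand, the letters of the GC box, and in *Amd1* also TATATAA on either strand.
Amd1: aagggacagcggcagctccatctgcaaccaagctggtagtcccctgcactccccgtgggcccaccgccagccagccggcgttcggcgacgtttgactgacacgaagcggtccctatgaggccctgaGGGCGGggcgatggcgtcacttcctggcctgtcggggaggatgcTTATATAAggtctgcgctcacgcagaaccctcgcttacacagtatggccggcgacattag
Smox: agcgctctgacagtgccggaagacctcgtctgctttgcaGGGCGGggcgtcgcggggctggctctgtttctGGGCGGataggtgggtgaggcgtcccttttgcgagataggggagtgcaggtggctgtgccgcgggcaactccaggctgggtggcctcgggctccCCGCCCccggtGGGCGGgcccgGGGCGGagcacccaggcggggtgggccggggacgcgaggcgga
The table of start-site windows held 8 of the 10 genes, in 9 windows of 300 bases. Searched on both strands, GGGCGG occurred in the windows of 6 members (*Amd1*, *Odc1*, *Smox*, *Sat1*, *Sms* and *Oaz2*) and in 35.7% of 32851 windows of all genes. TATATAA, which can overlap TATAAA, occurred in *Amd1* alone among the members and in 3.24% of all windows, and TATAAA in *Oaz1* alone and in 13.6%. CACGTG, the E-box, occurred in *Sms* alone and in 7.15% of all windows. TGACGTCA, the cAMP response element, occurred in no window of a member and in 1.79% of all windows. These are matches of letters within short windows only.

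Of the regulators of ornithine decarboxylase, *Oaz1* was higher in Mtm1-/y muscle and the others did not pass the test. The WT libraries of *Oaz1* were at 33.5, 35, 31.8 and 34.0 CPM, and the Mtm1-/y libraries at 48.3, 55.4, 57.4 and 49.4 CPM. The groups were narrow and well apart, with means of 33.6 ± 1.33 and 52.6 ± 4.46 CPM (log2 fold change 0.65, SE 0.10, adjusted p = 0.000243). Since 52.2% of the 50-base stretches of its transcript also occur in the pseudogene *Oaz1-ps*, the split of reads is uncertain. *Oaz1-ps* was counted at 1.02 ± 0.24 CPM in WT against 1.75 ± 0.48 CPM in the mutants. The log2 fold change of the sum of both was again 0.65 (SE 0.10). So few added reads could hardly move it, and the sum does not settle the split. *Oaz2* was at 77.6 ± 2.39 CPM in WT against 86.5 ± 21.9 CPM in the mutants (log2 fold change 0.16, SE 0.14, adjusted p = 0.433). Without Mtm1-/y replicate 1, the only mutant library below the WT range at 54.5 CPM, *Oaz2* had a log2 fold change of 0.33 and passed the test (SE 0.08, adjusted p = 0.0052). *Azin1* was at 75.7 ± 19.1 CPM in WT against 77.0 ± 34.7 CPM in the mutants, with a log2 fold change of 0.02 (95% confidence interval -0.72 to 0.77). Mtm1-/y replicate 1 was at 27.9 CPM and the rest of its group at 77.2 to 104 CPM, and without it the log2 fold change of *Azin1* was 0.30 (SE 0.24, adjusted p = 0.383). Both antizyme messages carry the stop codon at which ribosomes change frame when polyamines are high, a step the count data do not register. It is shown within 30 bases of an annotated transcript of each gene, with the TGA in capitals. In both genes this was a transcript other than the longest coding one.
Oaz1: ctcggtggtgctccTGAtgtccctcaccca
Oaz2: ctctgtggtgctccTGAtgcccctcaccca

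Tamoxifen in wild-type mice was accompanied by lower *Amd1*, the only one of the 10 genes called between WT + TAM and WT, where 0.309% of all tested genes were called. The WT + TAM libraries of *Amd1* were at 24.3, 14.9, 15 and 14.9 CPM, against 62.4 to 95.3 CPM in WT. No library of one group reached the other, and 3 of the 4 treated libraries were nearly equal, with WT + TAM replicate 1 above them. The mean was 17.3 ± 4.67 CPM, 4.69-fold below that of WT (log2 fold change -2.23, SE 0.33, adjusted p = 0.0121), and the gene was 13th by p among the 15533. The adjusted p was 0.0549 without WT replicate 1 and 0.0513 without WT + TAM replicate 4, with log2 fold changes of -2.14 and -2.16. With the replicate number as a block in the fit it was 0.0505 (log2 fold change -2.22), so the gene was not called there either. The summed level of B cell markers was 3.01 to 9.99 CPM in WT + TAM, also below every WT library. Only 2 of these markers could be tested, and 1 was called lower, so here too the sum need not reflect all 5. The part of these cells in the result was not tested.

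*Smox* showed the next largest difference in this comparison without being called. Its WT + TAM libraries were at 84.0, 29.2, 48.1 and 41.7 CPM, all below the WT range of 123 to 297 CPM. The mean was 50.7 ± 23.5 CPM, and the log2 fold change of -1.80 (SE 0.39) had an adjusted p of 0.0837. Without WT + TAM replicate 1, the library with the high slow-fibre markers, it was called (log2 fold change -2.15, SE 0.39, adjusted p = 0.0257), and DESeq2 called the gene with all libraries (adjusted p = 0.000112). With 6 of the 10 genes at an unadjusted p under 0.05, where 11.3% of all tested genes were, the members besides *Amd1* and *Smox* were *Amd2* (log2 fold change -1.0), *Odc1* (0.52), *Sat1* (0.36) and *Oaz1* (0.31), with adjusted p from 0.236 to 0.328. In 4 of the 10 genes (*Amd1*, *Amd2*, *Smox* and *Oaz1*) the libraries of the groups did not overlap, which held for 8.08% of all tested genes.

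The other members gave the following values. *Azin1* was at 45.1 ± 10.9 CPM in WT + TAM against 75.7 ± 19.1 CPM in WT, a log2 fold change of -0.75 (95% confidence interval -1.50 to 0.00). *Srm*, *Sms* and *Oaz2* had log2 fold changes of -0.10, -0.12 and 0.04, with adjusted p of 0.905, 0.891 and 0.943. *Srm* in WT + TAM replicate 1 was at 8.50 CPM, above the 4.58 to 5.0 CPM of the rest of the group.

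**Figure D3:**
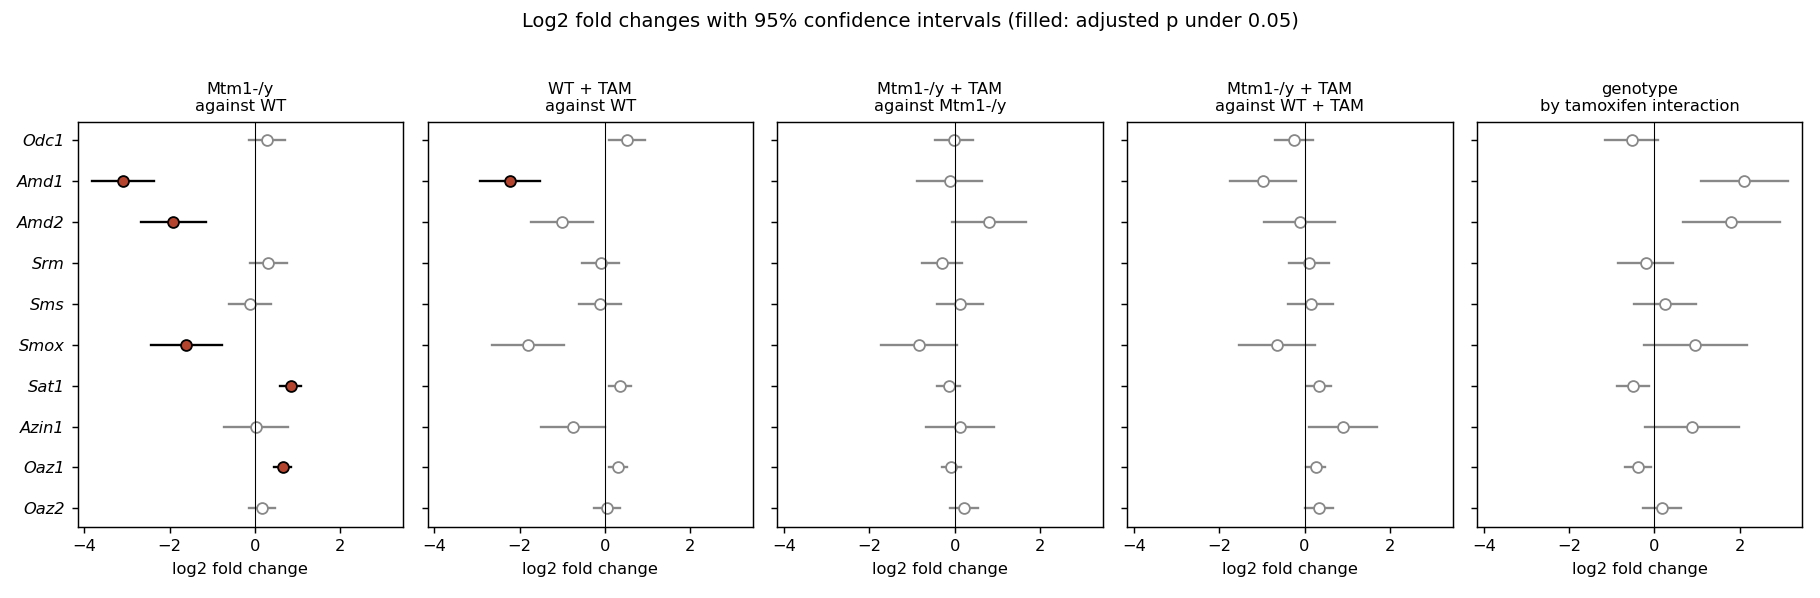
Log2 fold change of each gene in the 4 comparisons of groups and the difference of differences between them, with 95% confidence intervals and filled points for adjusted p under 0.05. There are 5 filled points between Mtm1-/y and WT, 1 between WT + TAM and WT (*Amd1*, at -2.23) and none in the rest. The interval of *Amd1* still lies below 0 between the treated groups and above 0 for the interaction. Those of *Azin1*, *Sat1*, *Oaz1* and *Oaz2* lie above 0 between the treated groups. For the interaction that of *Amd2* lies above 0 and those of *Sat1* and *Oaz1* below it.

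In Mtm1-/y mice, none of the 10 genes was called between Mtm1-/y + TAM and Mtm1-/y by edgeR, DESeq2 or limma with voom weights, and none had an unadjusted p under 0.05. Of all tested genes 0.0129% were called and 5.54% had an unadjusted p under 0.05. *Amd1* was at 10.3, 10.4 and 5.92 CPM in Mtm1-/y + TAM, within the range of the untreated mutants, with a log2 fold change of -0.12 (95% confidence interval -0.88 to 0.64). *Smox* was at 33.3, 37.9 and 26.1 CPM, with a mean of 32.5 ± 5.94 CPM against 58.0 ± 26.2 CPM and a log2 fold change of -0.84 (95% confidence interval -1.74 to 0.06). *Amd2* was the only member without overlap between the groups, which held for 5.71% of all tested genes. It was counted at 7 to 12 reads, with a log2 fold change of 0.80 (95% confidence interval -0.07 to 1.67). *Sat1* was at 19.6 ± 1.43 CPM and *Oaz1* at 50.0 ± 6.58 CPM, with log2 fold changes of -0.13 (95% confidence interval -0.40 to 0.14) and -0.07 (-0.30 to 0.15). For the remaining genes the log2 fold change lay between -0.30 (*Srm*) and 0.23 (*Oaz2*).

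Between the treated groups, none of the 10 genes was called by edgeR, where 20.1% of all tested genes were. DESeq2 called 2, *Amd1* and *Azin1*, and limma with voom weights called 0. At an unadjusted p under 0.05 there were 5 members, with 33.7% of all tested genes. *Amd1* was lower in every Mtm1-/y + TAM library (5.92 to 10.4 CPM) than in every WT + TAM library (14.9 to 24.3 CPM), but was not called (log2 fold change -0.97, SE 0.36, adjusted p = 0.0706). *Azin1* was higher in each (66.6 to 118 against 35.8 to 60.5 CPM), and was not called either (log2 fold change 0.90, SE 0.37, adjusted p = 0.106). *Sat1*, *Oaz1* and *Oaz2* had log2 fold changes of 0.34, 0.27 and 0.34, with adjusted p from 0.0715 to 0.134. The libraries did not overlap in 4 of the 10 genes, *Amd1*, *Azin1*, *Sat1* and *Oaz2*, against 31.6% of all tested genes. When only these groups entered the fit, *Amd1*, *Azin1*, *Sat1* and *Oaz2* were called, with adjusted p from 0.025 to 0.0463. Without Mtm1-/y + TAM replicate 2, which had the lowest *Oaz1* of its group at 42.4 CPM, *Oaz1* was called (log2 fold change 0.37, adjusted p = 0.0376).

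The difference between the tamoxifen effects in the genotypes was tested directly as an interaction. None of the 10 genes was called, nor was any of the 15533 (0%) by edgeR or by limma with voom weights, against 74 by DESeq2, while 10.6% of all tested genes and 4 of the 10 had an unadjusted p under 0.05. *Amd1* had the largest value, a log2 difference of 2.11 (95% confidence interval 1.1 to 3.13, unadjusted p = 0.000574, adjusted p = 0.266). DESeq2 called it (adjusted p = 0.00454), as did edgeR with both outlying libraries, WT + TAM replicate 1 and replicate 1 of Mtm1-/y, left out (2.05, adjusted p = 0.0247). *Amd2* (1.80), *Sat1* (-0.50) and *Oaz1* (-0.38) had adjusted p from 0.357 to 0.409. All these values share the WT libraries with the comparisons of WT + TAM and of Mtm1-/y against WT.

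Over the 15 libraries, the profiles of *Amd1* and *Smox* were near each other. Among 15532 genes ranked by the root mean square difference of centred log2 CPM from *Amd1*, *Smox* was 14th (0.682), and *Amd1* was 33rd from *Smox*. Among the 11057 genes whose mean log2 CPM reached 1, the closest to *Amd1* were *Actr3b* (0.450), *Mchr1* (0.540) and *Tiam1* (0.577), and the closest to *Smox* were *Mchr1* (0.448), *Mgst1* (0.460) and *Cdk19* (0.505). The points share the libraries and the group differences above, and the ranks are a description only.

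The genes around the polyamine pathway were described from a list of 30, of which 24 could be tested, and the others, among them *Mat1a*, *Arg1*, *Arg2*, *Oaz3* and *Slc22a2*, had at most 11 reads in any library. This list too was chosen with earlier results of these data known, and its counts are descriptions only. Between Mtm1-/y and WT, 12 of the 24 were called, 8 higher and 4 lower, against 30.4% of all tested genes, and the median log2 fold change of the 24 was 0.01. *Agmat* and *Atp13a4* passed the count filter through the mutant groups, in which they were high, and without them 10 of 22 genes were called, 6 higher and 4 lower. The 4 lower genes belong to the methylthioadenosine salvage pathway, which recycles the by-product of the *Srm* and *Sms* reactions to methionine. *Adi1*, an acireductone dioxygenase, went from 52.9 ± 3.14 to 29.1 ± 5.89 CPM (log2 fold change -0.87, adjusted p = 0.000143). *Mtap*, the phosphorylase that takes up methylthioadenosine (-0.75, adjusted p = 0.0135), *Enoph1* (-0.45, adjusted p = 0.018) and *Apip* (-0.34, adjusted p = 0.0246) were lower as well. *Mri1*, of the same pathway, was higher (0.62, adjusted p = 0.00145), so all 5 tested genes of salvage were called, in both directions. *Mat2a*, *Mat2b* and *Ahcy*, listed with them for the supply of S-adenosylmethionine, were not called. *Mtap* was no longer called without WT replicate 1, *Enoph1* without WT replicate 3 and *Apip* without WT replicate 1, 2 or 4, with adjusted p from 0.0514 to 0.0662.

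Of the 4 genes of hypusination, which uses spermidine to modify the translation factor eIF5A, 3 were called higher, where 15.5% of all tested genes were. *Eif5a* went from 169 ± 8.81 to 223 ± 18.2 CPM (log2 fold change 0.40, adjusted p = 0.00257), *Dhps*, deoxyhypusine synthase, from 14.2 ± 1.28 to 20.1 ± 1.90 CPM (0.50, adjusted p = 0.00273), and *Dohh*, deoxyhypusine hydroxylase, from 5.96 ± 1.11 to 10.1 ± 2.81 CPM (0.76, adjusted p = 0.00465). *Eif5a2*, the fourth gene of this group, was at 1.68 ± 0.14 and 1.26 ± 0.32 CPM and was not called. Among the transporters *Atp13a3*, a P5B-type polyamine transporter, was higher (34.5 ± 4.95 against 71.0 ± 41.4 CPM, log2 fold change 1.04, adjusted p = 0.0277), with Mtm1-/y replicate 1 at 133 CPM and the rest of its group at 47.6 to 52.0 CPM. Without that library *Atp13a3* was not called (log2 fold change 0.54, SE 0.22, adjusted p = 0.0756), nor was it without WT replicate 2, 3 or 4 (adjusted p from 0.052 to 0.0711). *Sat2*, a homologue of *Sat1*, was also higher (0.60, adjusted p = 0.0169), with an adjusted p of 0.0561 without WT replicate 1. *Agmat*, agmatinase, had 0 to 5 reads in WT libraries and 9 to 77 in Mtm1-/y libraries, and *Atp13a4* 0 to 1 and 3 to 15 reads. Both were called higher (adjusted p = 0.00349 and 0.0175), *Atp13a4* not without WT replicate 4 (adjusted p = 0.0521).

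Few genes of this list were called with tamoxifen. Between WT + TAM and WT, *Atp13a5* was the 1 gene of 24 called, against 0.309% of all tested genes, and it is named here after its value was seen. Its WT libraries were at 34.2, 10.2, 10.6 and 12.0 CPM and its WT + TAM libraries at 3.6, 2.45, 1.81 and 3.7 CPM (log2 fold change -2.55, SE 0.46, adjusted p = 0.0362), and the count was 0 without WT + TAM replicate 2, 3 or 4 or without any 1 of the WT libraries. No gene of the list was called between Mtm1-/y + TAM and Mtm1-/y by edgeR or DESeq2, with 2 at an unadjusted p under 0.05, as were 5.54% of all tested genes. Between the treated groups 9 were called, 6 higher (*Mri1*, *Agmat*, *Sat2*, *Atp13a4*, *Eif5a* and *Dhps*) and 3 lower (*Adi1*, *Azin2* and *Atp13a2*), against 20.1% of all tested genes (10.6% higher, 9.46% lower). Without *Agmat* and *Atp13a4*, which passed the count filter through the mutant groups, 7 of 22 genes were called, 4 higher and 3 lower. The count of 9 fell to 5 of the list when Mtm1-/y + TAM replicate 3 was left out. *Adi1* and *Sat2* were called with each of the 7 libraries left out in turn, as was *Agmat*, whose call is limited by that filter. *Adi1* was at 42.3 ± 2.14 CPM in WT + TAM and 28.9 ± 1.46 CPM in Mtm1-/y + TAM (log2 fold change -0.55, adjusted p = 0.00906). *Azin2*, an antizyme inhibitor like *Azin1*, was at 2.12 ± 0.45 and 1.07 ± 0.29 CPM (-0.98, adjusted p = 0.018, but 0.058 and 0.0979 without Mtm1-/y + TAM replicate 1 and 2), a direction opposite to that of *Azin1* in the same groups.

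**Figure D4:**
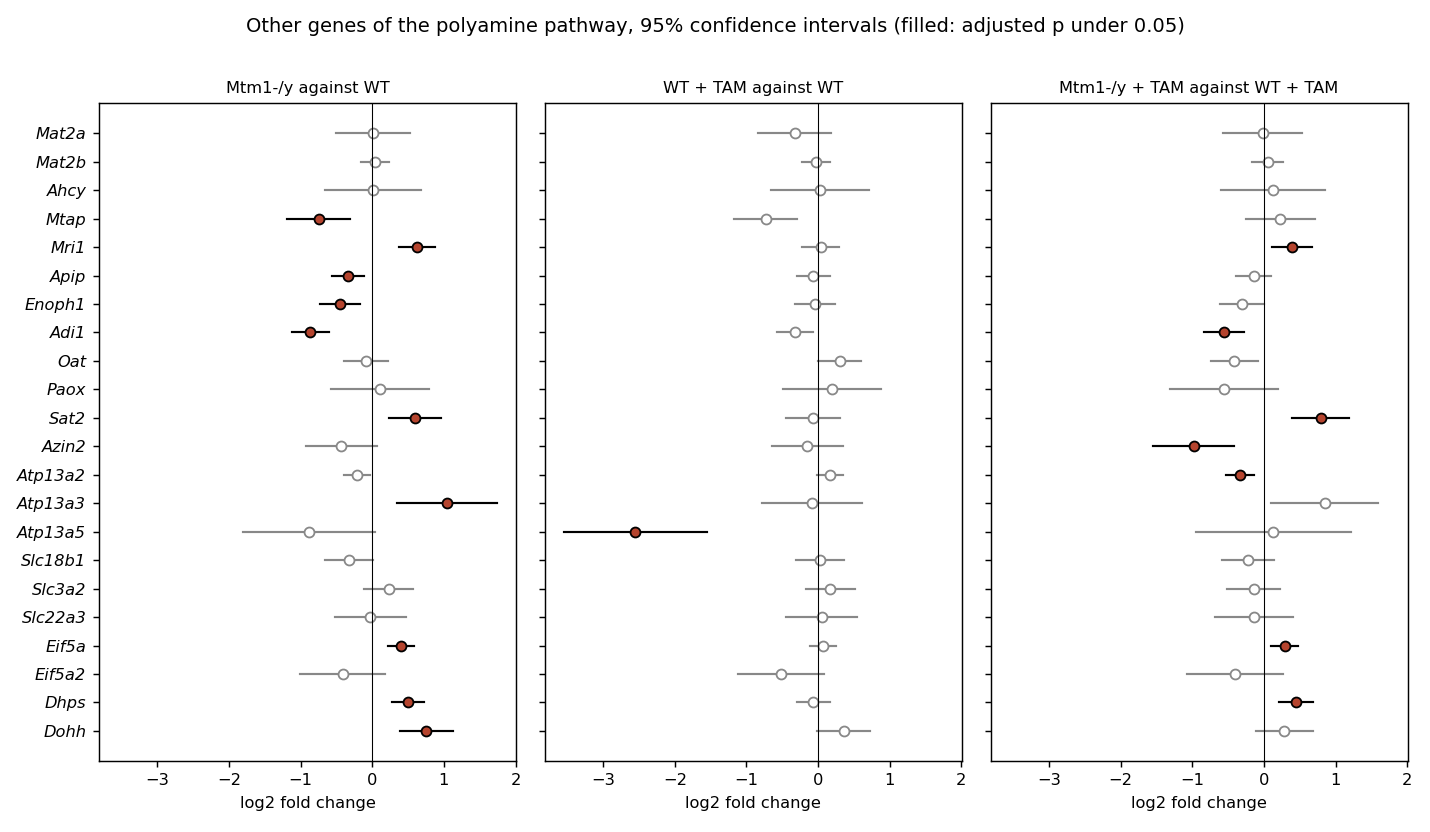
Log2 fold changes with 95% confidence intervals of 22 other genes of the polyamine pathway in 3 comparisons, with filled points for adjusted p under 0.05. *Agmat* and *Atp13a4* were tested but are left out for their low counts. *Adi1*, *Mtap*, *Enoph1* and *Apip* lie left of 0 and *Eif5a*, *Dhps* and *Dohh* right of 0 in the first panel, and *Atp13a5* is the 1 filled point of the second.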

How the data were processed

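The authors deposited raw read counts per Ensembl gene in 15 libraries (TruSeq stranded mRNA, tibialis anterior). Per the submitters' processing notes the tools were STAR 2.5.3a, HTSeq 0.6.1p1, Bowtie2 2.2.8 and cutadapt 1.10, with builds GRCm38 and mm10, in roles that are not stated. Strand setting and read length were not found. All 30672 identifiers matched GENCODE M21. Genes were kept by filterByExpr (minimum count 10), and the 15533 kept were fitted with TMM factors and 4 group means in edgeR 4.0.16 (quasi-likelihood, R 4.3.3) over all 15 libraries. CPM values carry the TMM factor, and log2 CPM a prior count of 2. DESeq2 1.42.0 and limma 3.58.1 were alternatives. Counts without *Amd2*, *Agmat* and *Atp13a4*, and genes of the wider list with each library left out, were added after the data were seen. The fit was tested on simulated counts. Members and lists were chosen with earlier results of these data known. The text names every member, genes of the wider list called in any comparison (at most 14, by adjusted p) and the 3 genes with the nearest profile to *Odc1*, *Amd1* and *Smox*. Some genes under this rule are not reported here. P-values measure the spread between these libraries only, and the precision of a level rests on 18042558 to 45823277 counts per library. Same-sequence windows were counted over GENCODE M21 transcripts.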

Additional observations from a re-analysis of the deposited data

Results flagged for a closer look

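Each of the 10 genes was examined in the 3 groups of 4 libraries for a highest or lowest value far from its neighbours, 30 groups in all, in which chance alone would give about 1.5. There were 3 such values, and both libraries concerned also stood apart in the principal component analysis. *Amd1* was at 24.3 CPM in WT + TAM replicate 1, and the other libraries of that group were at 14.9 to 15 CPM. *Srm* was at 8.50 CPM in the same library, against 4.58 to 5.0 CPM in the others. *Sms* was at 29.5 CPM in Mtm1-/y replicate 1, against 71.0 to 77.4 CPM in the others.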

How the results depend on the processing

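The count of members called was 5 between Mtm1-/y and WT in each alternative except 3 where an absolute log2 fold change over 1 was required (*Sat1* and *Oaz1* lost), 4 with the stricter filter on low counts (*Amd2* not tested), and except when libraries were left out (5 to 6 without each in turn, *Oaz2* being added without Mtm1-/y replicate 1). *Amd1* and *Smox* were called there in 18 of 18 alternatives. Between WT + TAM and WT the count of 1 was 2 with DESeq2 and 2 without both outlying libraries, namely WT + TAM replicate 1 and replicate 1 of Mtm1-/y (*Smox* added), and 0 to 2 without each library in turn. Between Mtm1-/y + TAM and WT + TAM the count of 0 was 2 with DESeq2, 4 with only those groups in the fit, 4 without both outlying libraries (*Amd1*, *Sms*, *Azin1* and *Oaz2*), and 0 to 1 without each library in turn. For the interaction it was 1 (*Amd1*) with DESeq2 and 1 without both outlying libraries, and 0 without each library in turn. Between Mtm1-/y + TAM and Mtm1-/y it was 0 throughout. Whether replicate numbers pair the libraries is not stated in the labels. Over 21 same-numbered pairs the correlation of deviations from the group means lay between -0.11 and 0.31, with 6 over 0.1, which cannot settle it. With the replicate number as a block, *Amd1* was no longer called between WT + TAM and WT (log2 fold change -2.22, adjusted p = 0.0505), a count of 0. Directions reversed only in results that were not called. Between Mtm1-/y and WT this held for *Sms* (-0.22 to 0.13 without each library in turn, 0.13 without both outlying libraries) and *Azin1* (-0.15 to 0.30 without each, -0.016 with upper-quartile factors, -0.10 with limma-voom, -0.059 with the replicate block). Between WT + TAM and WT it held for *Srm* (-0.35 to 0.00089 without each). Between Mtm1-/y + TAM and Mtm1-/y it held, without each library in turn, for *Amd1* (-0.39 to 0.13), *Odc1* (-0.14 to 0.10, and 0.0045 with upper-quartile factors), *Oaz1* (-0.14 to 0.031), *Sms* (-0.11 to 0.24) and *Azin1* (-0.20 to 0.31), the last 2 at -0.11 and -0.15 without both outlying libraries. Between the treated groups it held for *Amd2* (-0.26 to 0.036 without each), and for the interaction of *Srm* (-0.30 to 0.052 without each, 0.24 without both outlying libraries) and of *Oaz2* (-0.020 without both). Upper-quartile scaling gave 2081 higher and 2721 lower genes between Mtm1-/y and WT, against 2407 and 2320. Over all genes, leaving out each library gave 3693 to 4736 calls between Mtm1-/y and WT, 11 (without WT replicate 1) to 111 (without WT + TAM replicate 1) between WT + TAM and WT, where there were 48, and 1656 (without Mtm1-/y + TAM replicate 2) to 3339 between the treated groups, where there were 3121. *Amd2*, at 2 to 38 reads, is limited by depth. The cause of these changes was not tested.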
